A study of Mus musculus with 12 samples.

Results

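A set of 43 genes of the 35976 in the table (0.120%) was high in both leukemias driven by an MLL fusion and low or nearly silent in normal marrow and in a BRD9-NUTM1 leukemia. A gene was taken when its mean level was at least 3 CPM (the gene's count scaled to the library total) in MLL-AF9 and in MLL-ENL leukemia, when each of these means was at least 8 times the means of the other 2 groups, and when the 2 MLL means lay within 8-fold of each other. The numbers were met by 54 genes, of which 11 were set aside by name, namely 10 genes of the HoxA cluster, the antisense RNAs Hoxa11os and Hoxaas3 among them, and Hoxb13. Meis1 and Dach1, also set aside by name, did not meet the numbers. The set holds 31 protein-coding genes, 10 long noncoding RNAs, 1 transcribed pseudogene and 1 entry without an annotated location. The levels in the 4 groups chose the genes, so each level below is a description and carries no test except between the BRD9-NUTM1 leukemia and normal marrow. The selection capped the level in both of these groups but did not use which of them was higher.

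Polyadenylated RNA was sequenced from FACS-sorted CD45.2+ cells of C57BL/6 mouse bone marrow, with 3 libraries in each of 4 groups. The groups are normal marrow of genotype CD45.2(+), called WT, and 3 leukemias, CD45.2(+) BRD9-NUTM1 (BN1), CD45.2(+) MLL-AF9 (MA9) and CD45.2(+) MLL-ENL (ME). CD45.2, a form of the pan-leukocyte surface protein CD45, is shared by all 4 groups, and Ptprc, which encodes CD45, was present in every library at 322 to 1019 CPM. The sources used here do not give the promoter or vector behind each fusion, the number of animals or clones, or the ages. Nor do they say that libraries of 1 group are from different animals; a p-value here covers the spread between these libraries, which may be technical.

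MLL (Kmt2a) is a histone methyltransferase that helps keep developmental genes active. Its leukemic fusions keep the amino-terminal part, which binds DNA with unmethylated CpG dinucleotides through a CXXC domain, and gain a partner such as AF9 or ENL that brings in transcription elongation factors and the histone H3 methyltransferase DOT1L. HoxA genes and Meis1 are their best known targets in blood cells. In BRD9-NUTM1, a bromodomain subunit of SWI/SNF chromatin remodellers is fused to NUTM1, normally a testis protein.

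Promoter sequences from RefSeq (GRCm38.p6) were found for 33 of the 43 genes, as windows of 300 bases that run from 250 before to 50 after an annotated transcript start. They are shown for 4 genes that span the set's range of CpG content, with each CpG in capitals. Sdk1 (chr5:141241284-141241583, plus strand) has 54 CpG, the most in the set. Gm30134 (chr11:96203379-96203678, minus strand), a long noncoding RNA beside Hoxb13, has 21. Hpse2 (chr19:43388306-43388605, minus strand) has 10, the median of the set, and Naip6 (chr13:100316567-100316866, minus strand) has 1, the fewest.
Sdk1: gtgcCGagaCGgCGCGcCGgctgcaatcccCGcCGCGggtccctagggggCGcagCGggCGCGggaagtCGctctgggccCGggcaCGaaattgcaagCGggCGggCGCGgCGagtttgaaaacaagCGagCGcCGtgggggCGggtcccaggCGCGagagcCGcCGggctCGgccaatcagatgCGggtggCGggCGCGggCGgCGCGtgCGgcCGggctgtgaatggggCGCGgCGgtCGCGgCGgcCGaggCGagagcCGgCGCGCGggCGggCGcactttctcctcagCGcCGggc
Gm30134: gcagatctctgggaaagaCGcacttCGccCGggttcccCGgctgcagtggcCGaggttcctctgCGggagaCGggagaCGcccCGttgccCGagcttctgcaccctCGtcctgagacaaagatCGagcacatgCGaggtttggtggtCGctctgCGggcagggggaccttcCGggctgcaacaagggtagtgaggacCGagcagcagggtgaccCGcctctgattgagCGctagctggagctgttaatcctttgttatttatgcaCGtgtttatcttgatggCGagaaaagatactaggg
Hpse2: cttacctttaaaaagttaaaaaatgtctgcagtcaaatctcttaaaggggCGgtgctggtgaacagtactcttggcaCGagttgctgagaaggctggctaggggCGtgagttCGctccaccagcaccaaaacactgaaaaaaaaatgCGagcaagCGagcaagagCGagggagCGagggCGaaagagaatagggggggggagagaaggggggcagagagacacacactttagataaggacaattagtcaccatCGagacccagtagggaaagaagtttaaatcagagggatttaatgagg
Naip6: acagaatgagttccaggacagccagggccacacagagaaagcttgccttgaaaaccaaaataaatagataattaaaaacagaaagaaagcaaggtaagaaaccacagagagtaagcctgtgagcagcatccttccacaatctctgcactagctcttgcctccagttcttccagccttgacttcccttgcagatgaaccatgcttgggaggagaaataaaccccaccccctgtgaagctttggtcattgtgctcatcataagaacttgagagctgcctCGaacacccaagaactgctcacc
The selection fixed a high MLL level in all 4 genes, so the range of their windows, from CpG-dense to nearly CpG-free, is only a description.

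Promoters of the set held fewer CpG than those of other expressed genes. The median, taking each gene's richest window, was 10 CpG in the 33 genes against 20 in the 11232 tested genes with a window and 8 in all 27025 genes with a window. At least 10 CpG were found in 51.5% of the 33 genes and in 77.5% of tested genes, and at most 3 CpG in 15.2% and 8.28%. The genes with at most 3 were Naip6, Mira, Gm39896, Aspa and Ano4. Neither DNA methylation nor binding of the fusions was measured in these libraries.

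**Figure D1:**
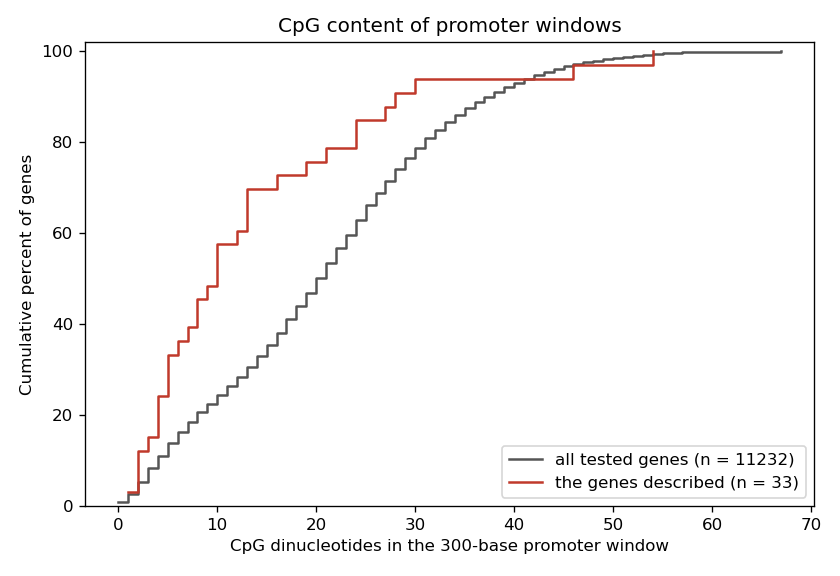
Cumulative percent of genes (y axis) by the number of CpG dinucleotides in the richest 300-base promoter window of a gene (x axis), for 33 genes of the set and 11232 tested genes. The line of the set lies to the left of the tested genes over most of the range and crosses it near its right end, where Ptprt (46 CpG) and Sdk1 (54 CpG) stand.

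Short motifs were searched on both strands of the same windows. TATAAA, the TATA box core, was found in 24.2% of the 33 genes, in 9.38% of tested genes and in 15.7% of all genes with a window. TGACAG, the core bound by MEIS proteins, was found in 27.3%, 20.2% and 21.6% in the same order, and TGTGGT, the RUNX core, in 24.2%, 16.3% and 18.9%. AACGG, a MYB core with 1 flanking base, was found in 18.2%, 25.5% and 19.6%, the set being close to all genes with a window. TTGCNNAA, a C/EBP core, was found in 15.2%, 10.8% and 12.2%. TGATTTAT, a site of HOXA9 with a cofactor, was found in none of the 33, in 0.570% of tested genes and in 1.15% of all. A motif this rare would seldom be seen in 33 genes, so its absence says little. The promoter of Hpgd (chr8:56294302-56294601, plus strand), the gene with the highest level, is shown with its TGACAG and TATAAA matches in capitals.
Hpgd: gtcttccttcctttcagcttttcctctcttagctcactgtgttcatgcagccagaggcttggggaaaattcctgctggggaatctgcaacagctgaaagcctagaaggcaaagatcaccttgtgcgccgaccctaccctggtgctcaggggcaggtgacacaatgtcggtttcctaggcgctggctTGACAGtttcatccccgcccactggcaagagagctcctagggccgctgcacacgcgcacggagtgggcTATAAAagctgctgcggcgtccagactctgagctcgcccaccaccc
TGACAG begins 64 bases before the annotated start and TATAAA 4 bases after it. In Ankrd63, TATAAA begins 33 bases before the start and in Pcp4l1 at the start itself. The TATAAA matches of Aspa, Gm35189, Gm36325, Pcbd1 and Trim66 lie 174 to 250 bases before it. Those of Gm36325, Pcbd1 and Trim66 are on the opposite strand only. Such matches describe letters in a window and are not measured sites.

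Library totals ran from 18292636 to 25732049 counts. ME replicate 3 stood apart in 2 entries of the table, where LOC101056014 had 14556 CPM (465 and 453 in the other pair of ME libraries) and Lars2 3451 (139 and 142), and without it the numbers selected 44 genes, all 43 among them. Marker lists of blood cell types differed between the groups, and not all in the same way. The summed level of 14 stem cell markers was 80.4 to 83.0 CPM for WT and 84.4 to 93.7 for BN1. It was higher in the MLL leukemias, at 209 to 216 for MA9 and 125 to 134 for ME. A single abundant marker can carry such a sum. The MLL target Meis1 alone averaged 140 CPM in MA9 and 37.1 in ME, but 6.64 in WT and 0.128 in BN1. The MA9 sum exceeded the WT sum by less than the Meis1 level of MA9. By group means, the other stem cell markers together were thus not higher in MA9 than in WT or BN1. The ME sum exceeded the WT sum by more than the Meis1 level of ME, and the BN1 sum by about that level. The sum was not taken without Meis1 in single libraries. In BN1, MA9 and ME 3, 2 and 5 of the 14 stem cell markers were at 0, Mecom among them in BN1 and MA9 and Tek in ME. For 14 markers of early progenitors the sums were 893 to 904, 1826 to 1846, 2292 to 2326 and 2050 to 2200 CPM in the same order, with Ikzf2 and Angpt1 at 0 in BN1. For 14 markers of monocytes and macrophages they were 2105 to 2308, 5285 to 5450, 1815 to 1894 and 2134 to 2235 CPM with none at 0, so that WT and ME overlapped and BN1 was highest. The summed level of 12 neutrophil markers was 58700 to 62255 CPM in WT and 6765 to 7017 in BN1, against 908 to 955 in MA9 and 942 to 1007 in ME, with no marker at 0 in any group. For 11 erythroid markers the sums were 32051 to 41072, 20.9 to 22.6, 29.3 to 35.6 and 3.99 to 4.79 CPM, with Car1 at 0 in the 3 leukemias and Slc4a1 among those at 0 in ME. For 10 B cell markers they were 1258 to 1401, 7.86 to 8.61, 20.3 to 21.4 and 2.18 to 2.46 CPM, with Ms4a1 among those at 0 in both MLL leukemias. For 11 markers of stroma and endothelium they were 85.9 to 88.6, 91.5 to 95.1, 166 to 174 and 48.1 to 49.6 CPM, with Pdgfra at 0 in WT, Kitl in BN1 and Kdr in BN1 and ME. None of these markers is in the set. Their part in the levels of the 43 genes was not tested, and in bulk samples fewer cells of a type and less RNA per cell cannot be told apart.

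The summed level of the 43 genes was 41.8 to 44.4 CPM in the WT libraries and 28.8 to 32.2 in BN1, against 2017 to 2075 in MA9 and 1957 to 2034 in ME. Without Hpgd the sums were 24.5 to 25.8 CPM in WT and 28.3 to 32.0 in BN1, against 1137 to 1162 in MA9 and 1011 to 1079 in ME. The higher sum in WT than in BN1 thus came from Hpgd, and without it BN1 was higher. In 31 genes both WT and BN1 means were under 1 CPM. In each of the 43, all 6 MLL libraries lay above all 6 others, which held for 16.7% of all 15334 tested genes; the selection nearly fixes this for its own genes. The lowest MLL library was at least 8 times the highest other library in 34. The smaller of the 2 MLL means had a median of 13.6 CPM and ran from 3.24 (5730596B20Rik) to 887 (Hpgd).

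**Figure D2:**
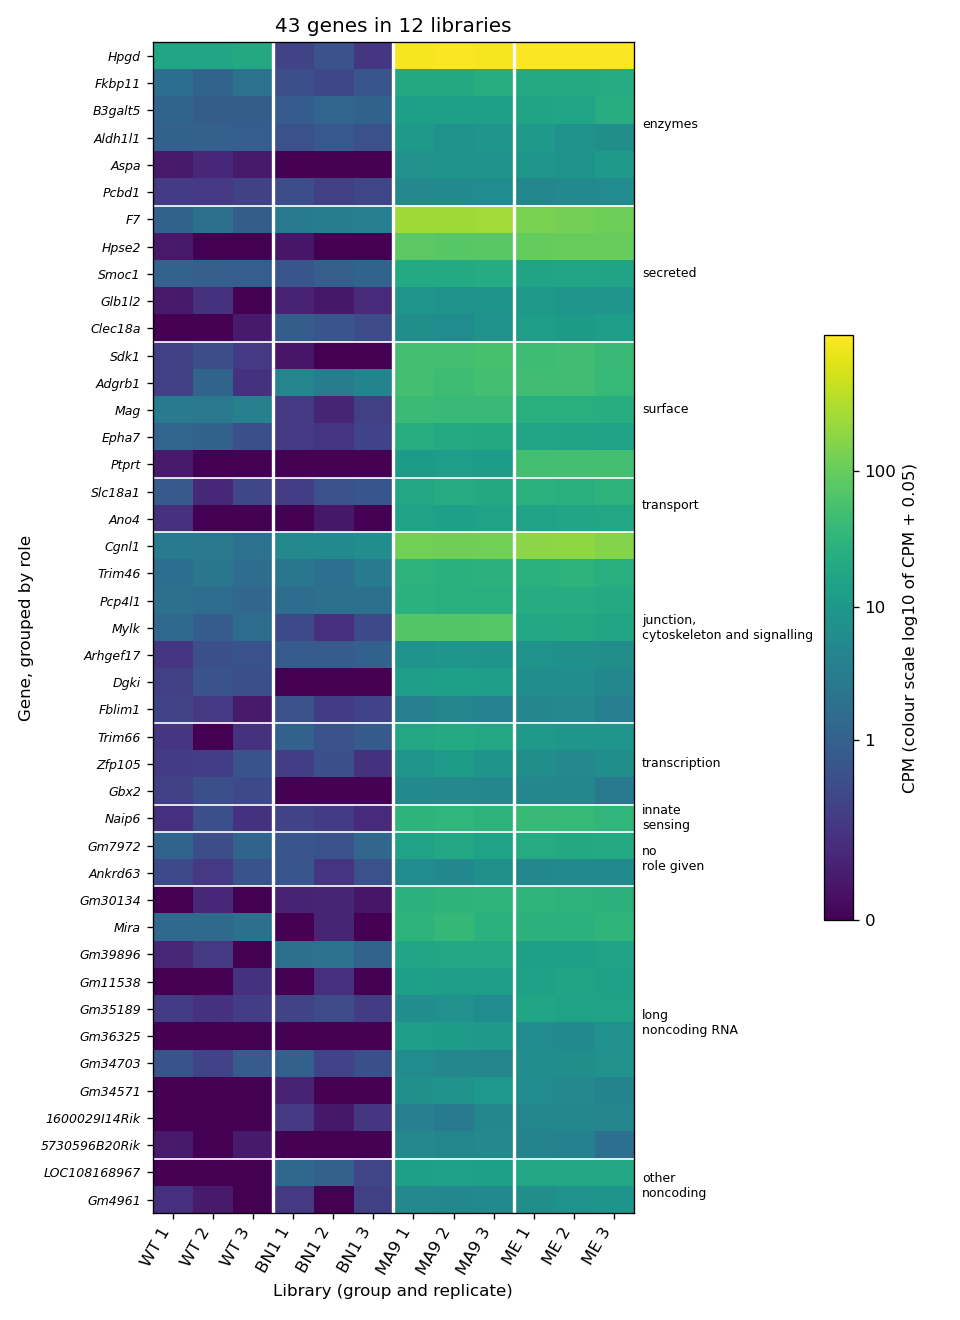
Level of each of the 43 genes (rows, grouped by role) in each of the 12 libraries (columns), with colour on a log10 scale of CPM + 0.05. The 6 MLL columns are brighter than the WT and BN1 columns in every row, Hpgd being the brightest row and 5730596B20Rik among the faintest.

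Enzymes made up 6 genes. Hpgd, which encodes the hydroxyprostaglandin dehydrogenase that inactivates prostaglandins, stood at 17.2, 17.3 and 19.6 CPM in the WT libraries, 0.334, 0.592 and 0.194 in BN1, 865, 938 and 858 in MA9, and 955, 947 and 946 in ME. The WT level lay between BN1 and the MLL leukemias without overlap. Per kilobase of exon it reached 527 CPM in MA9 and 564 in ME, the highest of the 35 genes with a known exon length, F7 coming next at 134 and 66.9. Summed counts put Hpgd 49.5-fold over WT and 2449-fold over BN1 in MA9, and 52.8-fold and 2615-fold in ME. Fkbp11, a peptidyl-prolyl isomerase of the endoplasmic reticulum, followed at 21.4 ± 2.26 CPM in MA9 and 21.6 ± 0.829 in ME (SD, n = 3, as in all means below) against 1.59 ± 0.440 in WT and 0.509 ± 0.148 in BN1. B3galt5, a galactosyltransferase, had 13.6 ± 0.380 and 19.1 ± 4.38 CPM in MA9 and ME. Aldh1l1, an enzyme of folate metabolism, Aspa, which cleaves N-acetylaspartate, and Pcbd1, which recycles tetrahydrobiopterin, had MLL means of 5.34 to 9.15 CPM.

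Secreted proteins made up 5 genes. F7 encodes coagulation factor VII, the protease that starts clotting with tissue factor and is mainly a liver product. Its levels were 1.03, 1.88 and 0.869 CPM in WT, 2.76, 3.14 and 3.58 in BN1, 248, 245 and 255 in MA9, and 137, 125 and 111 in ME. The 4 groups did not overlap, MA9 being highest and WT lowest. Hpse2 encodes heparanase 2, a relative of heparanase that binds heparan sulfate without cutting it. A single count was seen over the 3 WT libraries and a single count over the 3 BN1 libraries, whereas the levels were 83.4, 75.5 and 80.6 CPM in MA9 and 95.6, 99.0 and 98.3 in ME. From summed counts the ratio of MA9 to WT was 4791 (95% counting interval 859 to 189276) and that of ME to BN1 was 6992 (1254 to 276219); such intervals cover counting error only. Smoc1, a calcium-binding matrix protein, had 21.8 ± 1.32 CPM in MA9 and 16.6 ± 1.04 in ME against 0.977 ± 0.0834 in WT and 0.931 ± 0.249 in BN1. Clec18a, a secreted lectin, and Glb1l2, a relative of beta-galactosidase, had MLL means of 7.09 to 12 CPM.

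Surface proteins made up another 5 genes, several of them best known from the nervous system. Sdk1, an adhesion protein of the immunoglobulin superfamily, stood at 0.280, 0.469 and 0.205 CPM in WT, 0.0418, 0 and 0 in BN1, 52.7, 50.4 and 55.2 in MA9, and 45.1, 47.8 and 41.6 in ME. Adgrb1 (BAI1), an adhesion receptor that takes part in the uptake of dying cells, stood at 0.280, 1.15 and 0.153 CPM in WT, 4.56, 3.28 and 4.31 in BN1, 51.5, 44.8 and 52.7 in MA9, and 47.9, 48.0 and 37.5 in ME. BN1 thus lay above WT in Adgrb1 and below it in Sdk1, in both cases without overlap, and the MLL libraries lay far above both. Mag, a myelin glycoprotein of the siglec family, had 2.85, 2.61 and 3.68 CPM in WT, 0.209, 0.0911 and 0.272 in BN1, 43.3, 39.8 and 40.5 in MA9, and 26.2, 24.4 and 24.2 in ME. Its ME mean was 8.19 times its WT mean, next to the 8-fold limit. Epha7, an ephrin receptor, had MLL means of 21.9 ± 1.56 CPM in MA9 and 15.9 ± 0.970 in ME. Ptprt, a receptor tyrosine phosphatase, is described with the MA9 and ME differences.

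Transport proteins were Slc18a1, a vesicular monoamine transporter, at 20.3 ± 2.16 CPM in MA9 and 27.5 ± 2.49 in ME, and Ano4, of the anoctamin family, at 14.2 ± 0.919 and 17.3 ± 1.52. Slc18a1 overlaps Atp6v1b2, which was at 240 to 360 CPM in the 4 group means. The sources used here do not say whether counting used the strand, so reads of overlapping genes cannot be told apart. Ano4 had 3 counts in all in WT and 1 in BN1.

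Another 7 genes act at cell junctions, in the cytoskeleton or in signalling. Cgnl1 encodes paracingulin, a protein of epithelial junctions, and stood at 2.99, 2.45 and 1.99 CPM in WT, 5.18, 5.74 and 6.45 in BN1, 122, 117 and 123 in MA9, and 181, 183 and 159 in ME. The 4 groups did not overlap, and here ME was highest. Trim46, a microtubule-organising protein of axons, had 30.7, 27.2 and 29.1 CPM in MA9 and 27.4, 29.7 and 25.5 in ME, with 1.92 ± 0.370 in WT and 2.36 ± 0.527 in BN1. Pcp4l1, a relative of the calmodulin regulator Pcp4, had 28.4, 26.2 and 24.9 CPM in MA9 and 23.1, 22.6 and 21.2 in ME, with 1.60 ± 0.318 in WT and 1.80 ± 0.149 in BN1. WT and BN1 overlapped in both genes. Arhgef17, a guanine nucleotide exchange factor, and Fblim1 (migfilin), a filamin-binding protein, had MLL means of 4.07 to 8.44 CPM.

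Transcription regulators made up 3 genes. Trim66, of the TIF1 family, had 19.7 ± 1.22 CPM in MA9 and 9.56 ± 0.792 in ME, and Zfp105, a zinc finger protein, 9.35 ± 1.66 and 6.19 ± 0.910. Gbx2, a homeobox gene of the midbrain and hindbrain boundary, had 5.12 ± 0.303 and 4.17 ± 1.29 CPM, and no count in BN1. Naip6, of the NAIP family whose members sense bacterial proteins for the inflammasome, stood at 0.140, 0.522 and 0.153 CPM in WT, 0.334, 0.228 and 0.117 in BN1, 31.7, 34.3 and 30.1 in MA9, and 39.5, 37.8 and 33.2 in ME. Naip genes are close copies of each other, so the share of reads assigned to Naip6 is uncertain. Its promoter, shown above, held a single CpG. No role is given here for Ankrd63 and Gm7972.

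Of the 10 long noncoding RNAs, 4 lie in Hox clusters. Gm30134 (chr11:96198863-96203626, minus strand) lies 2.25 kb from Hoxb13 and had 0, 0.104 and 0 CPM in WT, 0.0836, 0.0911 and 0.0389 in BN1, 29.1, 30.8 and 32.2 in MA9, and 33.0, 30.5 and 29.5 in ME. Gm11538 overlaps it and had 13.9, 12.8 and 12.3 CPM in MA9 and 14.6, 16.5 and 14.4 in ME, with 3 counts in all in WT and 3 in BN1. Reads of this pair cannot be told apart where they overlap. Mira (chr6:52214491-52215288, minus strand), an RNA of the Hoxa6 and Hoxa7 interval, lies 0.334 kb from Hoxa7 and had 1.40, 1.51 and 1.89 CPM in WT, 0, 0.0911 and 0 in BN1, 30.7, 36.6 and 27.9 in MA9, and 29.2, 28.1 and 32.1 in ME. Hoxa7 had the same order of groups, with 2.85 ± 0.833 CPM in WT and 0.0139 ± 0.0241 in BN1, against 55.8 ± 4.43 in MA9 and 48.9 ± 2.47 in ME. 5730596B20Rik overlaps Hoxa3 and had 5.17, 4.66 and 5.15 CPM in MA9 and 4.10, 3.83 and 1.80 in ME, with 2 counts in all in WT and none in BN1. ME replicate 3 was the lowest MLL value in the set. Long noncoding RNAs made up 23.3% of the set and 8.83% of all tested genes.

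The other 6 long noncoding RNAs lie outside the Hox clusters. Gm39896 lies 7.09 kb from Lmo2 and had 18.3 ± 0.508 CPM in MA9 and 14.3 ± 0.939 in ME against 1.67 ± 0.471 in BN1 and 0.101 ± 0.105 in WT. Lmo2, which encodes a LIM protein of blood stem cells, had 182 CPM in WT and 509 in BN1, against 485 in MA9 and 335 in ME. Gm36325 had no count in the 6 WT and BN1 libraries and was at least 232-fold higher in MA9 and at least 125-fold higher in ME than in WT, from a floor of 3 counts over a group.

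Levels in the 2 MLL leukemias were close, as the selection asks, with room for differences of up to 8-fold. The ratio of means was within 2-fold for 37 genes and beyond it for 6. All 3 MA9 libraries exceeded all 3 ME libraries in 14 genes (32.6%, against 30.3% of all tested genes), the reverse held in 16 (37.2%, against 19.3%), and the libraries overlapped in 13. These counts come from genes picked for being alike in the 2 groups and carry no test. Across all tested genes edgeR called 40.6% different between MA9 and ME at an adjusted p under 0.05.

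Mylk, which encodes myosin light chain kinase, differed most toward MA9. It stood at 70.9, 70.1 and 74.8 CPM in MA9 and 18.2, 19.6 and 17.5 in ME, a ratio of 3.90, with 1.45, 0.835 and 1.59 in WT and 0.418, 0.137 and 0.389 in BN1. The 4 groups did not overlap. Dgki, a diacylglycerol kinase, followed with 12.6, 13.2 and 12.5 CPM in MA9 and 6.33, 6.27 and 5.03 in ME, a ratio of 2.17, and had no count in BN1. Trim66 had 19.1, 21.1 and 18.9 CPM in MA9 and 10.4, 9.50 and 8.80 in ME, a ratio of 2.06. The ratio was 2.0 for F7 and 1.84 for Gm36325, which had 12.5, 12 and 10.2 CPM in MA9 and 5.78, 5.72 and 7.38 in ME. MA9 and ME did not overlap in any of these 5 genes. Ptprt differed most toward ME. It stood at 11.1, 12.3 and 11.9 CPM in MA9 and 49.7, 51.1 and 52.7 in ME, 4.35-fold higher in ME, with a single count in WT and none in BN1. Gm35189 was 2.32-fold higher in ME, at 6.38, 7.37 and 6.22 CPM in MA9 and 17.0, 14.7 and 14.7 in ME. The C-type lectin gene Clec18a was 1.69-fold higher in ME, at 6.96, 6.15 and 8.15 CPM in MA9 and 12.5, 11 and 12.6 in ME. Cgnl1 was 1.44-fold higher, and so was the pseudogene Gm4961, at 5.33, 5.07 and 5.40 CPM in MA9 and 6.62, 7.65 and 8.47 in ME. The libraries again did not overlap in these 5 genes.

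**Figure D3:**
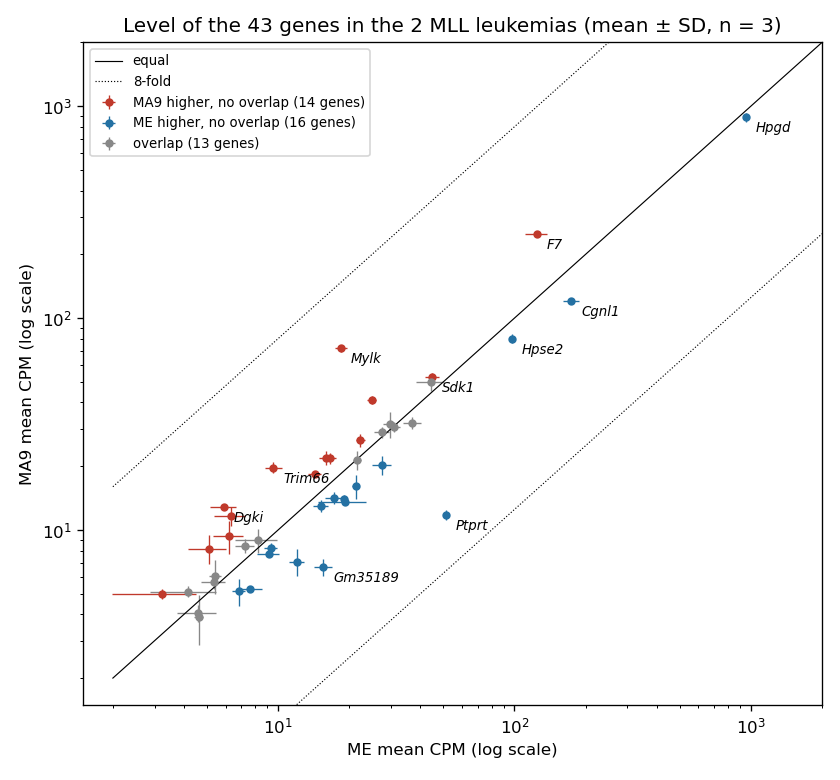
Mean CPM in MA9 (y axis, log scale) against mean CPM in ME (x axis, log scale) for the 43 genes, with SD of 3 libraries as bars, the line of equal level and the dotted 8-fold limits. Most genes lie near the line of equal level, while Mylk stands above it (71.9 and 18.4 CPM) and Ptprt below it (11.8 and 51.2 CPM).

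Between BN1 and WT, which the selection treats alike, genes of the set differed in both directions. The selection keeps both groups low, and the median gene of the set had 22 counts over the 3 WT libraries and 24 over the 3 BN1 libraries, against 1130 and 1390 for all tested genes. By edgeR's quasi-likelihood test with Benjamini-Hochberg adjustment over 15334 genes, in the fit over all 4 groups, 9 of the 43 were higher in BN1 (20.9%, against 38.4% of all genes tested) and 11 lower (25.6%, against 40.8%), 20 in all (46.5%, against 79.2%). Since the caps of the selection bear on these counts, nothing is read from their distance to the shares of all genes. Every gene passed the filter on low counts, but 22 did so through the MLL libraries alone. When only the WT and BN1 libraries were fitted, the other 21 were tested, of which 6 were higher in BN1 (28.6%, against 39.8% of 14642 genes) and 7 lower (33.3%, against 41.8%). These 13 were all called in the same direction in both fits. The remaining 7 calls, of Sdk1, Dgki, Gbx2 and Aspa as lower and of LOC108168967, 1600029I14Rik and Clec18a as higher, have no test in WT and BN1 alone.

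Genes lower in BN1 were led by Hpgd. Its log2 fold change was -5.73 ± 0.14 (SE, edgeR adjusted p = 6.7e-23), a 49.5-fold difference in summed counts, and all 3 BN1 libraries lay below all WT libraries. Mira fell by 5.68 ± 0.52 on the log2 scale (adjusted p = 1.1e-10) and Mag by 4.04 ± 0.27 (adjusted p = 9.0e-14). For Mira the ratio of WT to BN1 was 57.1 (95% counting interval 15.4 to 478), since 2 counts were seen in BN1. Mylk, Epha7, Fkbp11 and Aldh1l1 were the other lower genes tested in both fits, the last by 0.82 ± 0.31 (adjusted p = 0.016). Of the genes without a test in WT and BN1 alone, Dgki had 27 counts in WT, Gbx2 24 and Aspa 4, and none had a count in BN1, so that WT was at least 10.7-fold, 9.52-fold and 1.59-fold higher, while Sdk1 had 19 counts in WT and 1 in BN1. The model's SE understates counting error for genes with few counts. The call of Aspa was lost without WT replicate 2 (adjusted p = 0.051) and that of Aldh1l1 without BN1 replicate 3 or with limma-voom (0.052 in both).

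Genes higher in BN1 than in WT still had BN1 means at least 8-fold under both MLL means, as the selection requires. Gm39896 was 3.85 ± 0.44 higher on the log2 scale (SE, edgeR adjusted p = 7.1e-09), at 1.92, 1.96 and 1.13 CPM in BN1 and 0.0933, 0.209 and 0 in WT. Cgnl1 was 1.09 ± 0.14 higher (adjusted p = 4.0e-08) and Adgrb1 2.84 ± 0.37 higher (adjusted p = 2.2e-06), with no overlap of the libraries in either. F7 had 2.54-fold more in BN1 than in WT by summed counts, Trim66 6.84-fold and Arhgef17 2.15-fold. Of the genes without a test in WT and BN1 alone, LOC108168967 and 1600029I14Rik had no count in WT and were at least 17.9-fold and 3.08-fold higher in BN1, and Clec18a had a single WT count (ratio 38.7, 95% counting interval 6.60 to 1560). The call of Arhgef17 was lost without WT replicate 1 (adjusted p = 0.12) or BN1 replicate 3 (0.053).

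**Figure D4:**
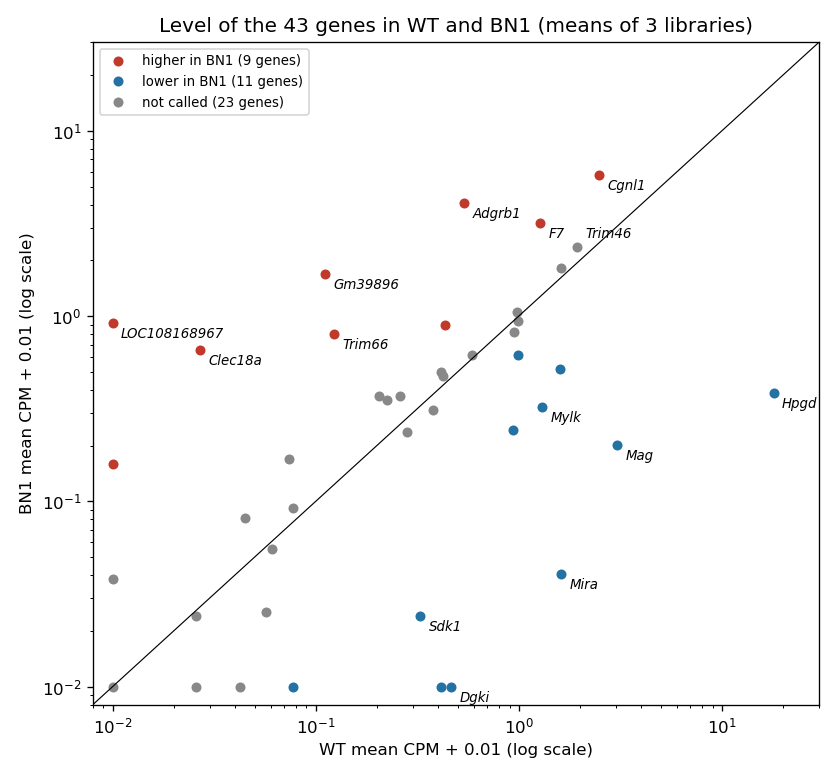
Mean CPM + 0.01 in BN1 (y axis, log scale) against mean CPM + 0.01 in WT (x axis, log scale) for the 43 genes, coloured by the edgeR call in the fit over all 4 groups, each point a mean of 3 libraries. Points called higher (9, or 20.9%, against 38.4% of all genes tested) and lower (11, or 25.6%, against 40.8%) lie on both sides of the line of equal level. Hpgd and Mira lie far below it and Gm39896 far above. Of the called points, 7 have no test in WT and BN1 alone, Clec18a among them.

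Genes beside the set were examined next. Of 151 genes within 50 kb of one of the 42 located genes, 96 were tested. Among these 96, 11 are Hox genes that met the numbers of the selection and were set aside by name, so their levels are no result, and the counts that follow leave them out. Of the other 85, 47 were higher in the mean of MA9 and ME than in WT (55.3%, against 40.0% of all genes tested) and 25 lower (29.4%, against 41.9%), with a median log2 fold change of 0.35 against -0.01 for all genes. Against BN1, 35 were higher (41.2%, against 34.9%) and 26 lower (30.6%, against 34.1%), with a median of 0.10 against 0.01. Setting genes without counts to their bound left the medians at 0.35 and 0.10. Among the 79 genes that were not within 50 kb of a gene of the set in a Hox cluster, a split made after the values were seen, 41 were higher than WT (51.9%) and 25 lower (31.6%), and 31 were higher than BN1 (39.2%) and 25 lower (31.6%), with medians of 0.20 and 0.07. Bpi, Atp6v1b2 and Krtcap2 among them overlap a gene of the set, so reads may be shared, and without these 3 the counts were 38 of 76 higher than WT (50%) and 28 higher than BN1 (36.8%), with medians of 0.18 and 0.05. All MLL libraries lay above all others in 19 of the 79 (24.1%, against 16.7% of all genes tested). Bpi, Atp6v1b2 and Krtcap2, which may share reads with genes of the set, are all among these 19. With the 11 Hox genes the counts over the 96 were 58 higher and 25 lower than WT, and 46 higher and 26 lower than BN1.

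Some neighbours shared the MLL-high pattern in part and others did not. F10, which encodes coagulation factor X, lies 1.5 kb from F7 and had 50.6 ± 2.21 CPM in WT and 237 ± 7.76 in BN1, against 280 ± 1.68 in MA9 and 380 ± 13 in ME. BN1 was thus close to MA9 in F10, whereas in F7 it had 3.16 ± 0.408 CPM against 249 ± 4.91 in MA9. Pyroxd2, 33.7 kb from Hpse2, had mean levels of 2.75 CPM in WT and 85.6 in BN1, against 64.0 in MA9 and 86.8 in ME, so that BN1 was in the range of the MLL leukemias although Hpse2 had a single count there. Near Fkbp11, Rnd1, a small GTPase 46.9 kb away, had 12.2, 10.7, 79.7 and 57.6 CPM in the same order. Cd22, a B cell siglec 18.8 kb from Mag, had 127 CPM in WT and 2.78, 1.33 and 0.900 in the leukemias. Hotairm1, 15.1 kb from 5730596B20Rik, was not called against BN1 (log2 -0.09, edgeR adjusted p = 0.70).

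**Figure D5:**
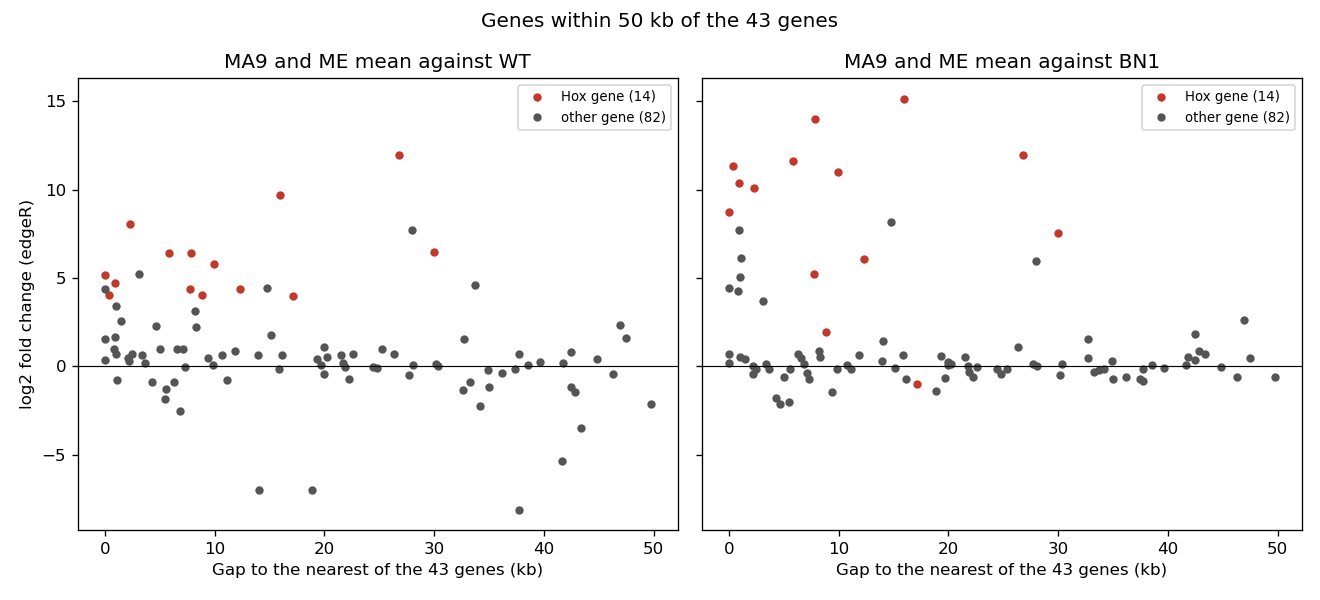
Log2 fold change from edgeR (y axis) of the 96 tested genes within 50 kb of the set, against the gap to the nearest gene of the set in kb (x axis), for the mean of MA9 and ME against WT (left) and against BN1 (right). The 14 Hox genes, 11 of which met the numbers of the selection, lie above 0 against WT, and against BN1 13 of them do, while the 82 other genes spread on both sides of 0.

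Many of the protein-coding genes are long. Their median span was 43.4 kb against 23.1 kb for tested protein-coding genes, and 6 of 31 spanned at least 200 kb (19.4%, against 4.25%). A span of at least 500 kb was found in 3 (9.68%, against 0.695%), namely Ptprt (chr2:161521988-162661147, minus strand), Sdk1 (chr5:141241497-142215586, plus strand) and Hpse2 (chr19:42786541-43388476, minus strand). The 42 located genes lie on 17 chromosomes, with at most 5 on any of them (chromosomes 8 and 9).

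A list of 39 known MLL fusion targets outside the set, chosen with earlier results of these data known, moved in both directions. Of the 36 tested, 21 were higher in the MLL mean than in WT (58.3%, against 40.0% of all genes) and 14 lower (38.9%, against 41.9%), while 20 were higher than in BN1 (55.6%, against 34.9%) and 10 lower (27.8%, against 34.1%). The medians of the log2 fold changes were 0.36 and 0.95, the latter 0.93 with genes lacking counts at their bound. The MLL mean is an average of log2 levels, so a gene without counts in 1 leukemia can be called lower while high in the other. Eya1 is such a gene, at 84.0 ± 3.92 CPM in MA9, 0 in ME and 4.34 ± 0.822 in WT. In 10 of the 36 (27.8%, against 16.7%) every MLL library lay above every other library, namely Meis1, Pbx3, Myb, Myc, Cdk6, Gfi1, Igf2bp3, Arid1b, Lgals1 and Adgrl4. Cdk6, a cell cycle kinase, had 110 ± 9.05 CPM in WT and 669 ± 23.5 in BN1 against 1442 ± 66.6 in MA9 and 1511 ± 6.33 in ME, and the BN1 level kept it out of the set. Meis1, a Hox cofactor, had 6.64 ± 0.877 CPM in WT and 0.128 ± 0.116 in BN1 against 140 ± 6.83 in MA9 and 37.1 ± 2.88 in ME, and missed the limit in ME against WT. Dach1, a transcription cofactor, was at 36.1 ± 4.45 CPM in WT, 35.1 ± 3.09 in MA9 and 38.6 ± 1.0 in ME, with no count in BN1.

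HoxA genes often had the levels that define the set. Of 11 listed, 10 were tested and 8 met the numbers of the selection, so the list's counts are a description. All 10 were higher in the MLL mean than in WT (40.0% of all genes tested) and 9 higher than in BN1 (34.9% of all). Hoxa9 stood at 3.45 ± 0.184 CPM in WT and 0.0152 ± 0.0263 in BN1, against 378 ± 11.8 in MA9 and 288 ± 1.66 in ME. Of 8 tested Hox cofactors, 2 were higher than in WT (25.0%, against 40.0%) and 6 lower (75.0%, against 41.9%), and 4 were higher than in BN1 (50%, against 34.9%) and 2 lower (25.0%, against 34.1%).

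Close relatives of the set's genes, a list chosen after the values were seen, were called in both directions. For 24 genes 61 relatives outside the set were listed and 37 were tested. Against WT 17 were higher (45.9%, against 40.0% of all genes) and 13 lower (35.1%, against 41.9%), shares near those of all genes. Against BN1 8 were higher (21.6%, against 34.9%) and 14 lower (37.8%, against 34.1%). The medians of the log2 fold changes were 0.09 and -0.02. Every MLL library lay above every other library in 3 of the 37 (8.11%, against 16.7%), namely F10, Ano7 and Trim28. Hpse, the active heparanase, had 54.8 ± 3.08 CPM in WT and 251 ± 3.03 in BN1, against 80.4 ± 2.5 in MA9 and 37.1 ± 1.04 in ME, and was highest in BN1, where Hpse2 had a single count. Naip2 had 89.1, 188, 150 and 205 CPM in the same order and Naip5 78.8, 134, 92.0 and 101, so that these close copies of Naip6 were well expressed in WT and BN1. Ptprm, a relative of Ptprt, had 0.471 CPM in WT and 11.1 in BN1, against 10.3 in MA9 and 16.3 in ME.

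Levels near the limits of the selection were as follows. Just inside the 8-fold limit were Arhgef17 and Mag at 8.19 times the larger of the WT and BN1 means, Aldh1l1 at 8.38, Gm34703 at 8.41 and Gm39896 at 8.55. Arhgef17 had 0.794, 0.820 and 1.05 CPM in BN1, where its mean was higher than in WT, against 7.96, 7.24 and 6.61 in ME. Aldh1l1 had 1.03, 0.991 and 0.920 CPM in WT against 9.99, 7.97 and 6.67 in ME, and Gm34703 had 1.0, 0.319 and 0.505 in BN1 against 5.96, 4.93 and 4.48 in MA9. The MLL libraries of all 3 lay above all WT and BN1 libraries. Just outside were Gm1110 at 7.68, Zdhhc2 at 7.53, Bambi, a pseudoreceptor of TGF-beta signalling, at 7.27, Slc4a8, a bicarbonate transporter, at 6.95 and Gm38859 at 6.84. Slc4a8 was abundant, with 155 CPM in MA9 and 173 in ME, and was kept out by 22.3 CPM in BN1. Col6a3, a collagen chain with 88.5 CPM in MA9 and 6.70 in ME, met the other numbers and was kept out by the 13.2-fold ratio between the MLL leukemias. Of the genes just under 3 CPM, Tmem52b had 2.69 CPM in MA9 and 3.32 in ME. With library scaling by TMM or by DESeq2 size factors, 40 genes remained, all of the 43 except Aldh1l1, Gm34703 and Mag.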

How the data were processed

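Read counts per gene, as the authors deposited them for 35976 gene symbols in 12 libraries, were used without change. Per the submitters' processing notes, reads were handled with HISAT2, featureCounts and DESeq2 on mm10. The sources used here give no versions, annotation release or strand setting, and per the labels the kit was a stranded one for mRNA. From the counts, CPM (count divided by library total) and group means gave the set of genes. The members and all gene lists were chosen with earlier results of these data known, and the relatives, the roles and the neighbour counts without Hox genes or Hox clusters after the members' values were seen.

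One edgeR 4.0.16 quasi-likelihood fit with TMM scaling (factors 0.928 to 1.05) was made on the 15334 genes kept by filterByExpr, with 4 group means, 8 residual degrees of freedom and Benjamini-Hochberg adjustment over all of them at 0.05. The SE of a log2 fold change was derived from that test, as the size of the change divided by the square root of its F statistic. Alternatives used DESeq2 1.42.0, limma-voom (limma 3.58.1), other scaling and filters, a replicate block and each library left out. Fits were run in R 4.3.3 and tested on simulated counts, and tables and plots were made in Python 3.11.15. Replicates were compared for duplicates, and the smallest mean chi-square of a pair was 2.0. Positions and promoters came from RefSeq GRCm38.p6 (90.3% of symbols located) and exon lengths from GENCODE M21. Per-library values are given for the 12 members with the highest smaller MLL mean, the 5 with the highest and 5 with the lowest MA9 to ME ratio, those with the 5 lowest adjusted p between BN1 and WT, those at the 8-fold limit and those in Hox clusters, in the groups each result turns on. Some marker and list genes are not reported here by name.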

Additional observations from a re-analysis of the deposited data

How the results depend on the processing

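The size of the set depends on its limits. It was 82 genes at a 4-fold minimum and 24 at 16-fold, 66 at a minimum of 1 CPM and 24 at 10 CPM, 42 with MA9 and ME within 4-fold, and 34 when every MLL library had to be 8 times every other library. Leaving out 1 library gave 39 to 44 genes, the 39 without ME replicate 1, which dropped 5730596B20Rik, Aldh1l1, Arhgef17 and Mag. Between BN1 and WT, 9 genes were higher (20.9%, against 38.4% of all genes tested) and 11 lower (25.6%, against 40.8%). These counts ran from 8 to 10 and from 10 to 11 over fits without 1 library. All of those fits kept MLL libraries, so they do not bear on the 7 calls without a test in WT and BN1 alone. When only the BN1 and WT libraries were fitted, 21 of the 43 genes passed the filter on low counts. The counts were then 6 (28.6%, against 39.8%) and 7 (33.3%, against 41.8%). Replicate numbers did not mark pairs, since same-numbered libraries did not deviate together, and with the replicate block the counts were again 9 and 11. Of 373 alternatives for single named genes, 5 lost the call (Aldh1l1, Arhgef17 and Aspa) and none changed direction. Neighbours higher than BN1 numbered 46 of 96 tested within 50 kb (47.9%, against 34.9% of all genes tested), and 26 were lower (27.1%, against 34.1%). Those higher than BN1 were 30 within 20 kb and 61 within 100 kb, given without the number tested and so without a share. These counts include Hox genes that met the numbers of the selection and so were partly fixed in advance. Within 50 kb these genes were 11, all called higher, and without them 35 of 85 were higher (41.2%) and 26 lower (30.6%). Outside Hox clusters and without overlap, an alternative added after the data were seen, 28 of 76 were higher than BN1 (36.8%) and 25 lower (32.9%). Against WT, 38 of these 76 were higher (50%, against 40.0% of all genes tested) and 25 lower (32.9%, against 41.9%), in place of 58 of 96 higher (60.4%). Over fits without 1 library the neighbours within 50 kb higher than BN1, Hox genes included, ran from 44 to 46, and those higher than WT from 57 to 60. TMM in place of CPM scaling shifted MLL against WT by -0.14 on the log2 scale. Depth limits what can be said of WT and BN1 levels, where 3 counts over a group correspond to 0.0499 and 0.0419 CPM.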
